A study of Mus musculus with 6 samples.

Results

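The BCL2 family decides whether the outer membrane of the mitochondrion stays sealed in a T cell, and 10 genes of this system were followed in tumor-infiltrating Tregs with and without Ku70. They were taken by symbol from the 15319 genes listed, and all 10 were found: the prosurvival genes Bcl2, Bcl2l1, Mcl1, Bcl2a1b and Bcl2a1d, the BH3-only death genes Bcl2l11, Bid and Bad, the pore-forming gene Bak1, and Bcl10. The last shares only its name with the family, since it encodes a CARD adaptor that carries T cell receptor signals to NF-kB. The RNA-Seq compared 3 libraries from WT mice (Foxp3 Yfp-Cre) with 3 from cKO mice (Xrcc6 flox/flox Foxp3 Yfp-Cre), so both groups carried the Cre and YFP at Foxp3, and deletion of Xrcc6 was limited to cells that express Foxp3. The mice were on a C57BL/6J background and 8 to 10 weeks old when each received 1000000 LLC cells, a lung carcinoma line of the mouse, by tail vein, and Tregs were sorted from the lung tumors 21 days later. Whether a library held the cells of 1 mouse or a pool is not given in the sources used here, so p-values measure the spread between these libraries, which may in part be technical.

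Prosurvival members hold BAK and BAX in check on the mitochondrion. BH3-only proteins such as BIM (Bcl2l11) bind the prosurvival members or the pore formers and tip the cell toward release of cytochrome c and caspase activation. Tregs depend on MCL1 and on IL-2 signaling for survival, BIM limits their number, and BCL-xL (Bcl2l1) and A1 (Bcl2a1) are raised by T cell receptor and NF-kB signals. Ku70 itself is known to bind BAX in the cytosol.

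Levels are CPM (counts scaled to a common library total by the TMM method), and the cKO group was tested against WT by the quasi-likelihood method of edgeR. Where 3 values of a group are listed, they follow the order of replicates 1, 2 and 3. A gene was called at an adjusted p under 0.05 over the 15315 genes with at least 1 count. Total counts were 19032620 to 21707706 in the WT group and 20762042 to 23159815 in the cKO group, and 3 counts, the limit that a count of 0 allows, were worth 0.133 to 0.156 CPM (counting error only). WT replicate 2 stood apart: it had counts for 11513 genes, against 14442 to 14737 in the other libraries, and the fold change of each member is therefore also given without it. Xrcc6, the deleted gene, was at 20.9 to 63.1 CPM in the WT libraries and 3.51 to 5.24 CPM in the cKO libraries. Even this gene, at a log2 fold change of -3.06, was not called with all libraries (adjusted p = 0.984, edgeR). Without WT replicate 2 it was called, at -2.38 (adjusted p = 0.0196, edgeR). Foxp3 was at 150 to 282 CPM in all 6 libraries. The 8 Treg markers were detected in every library. Other cells were traced by their markers, whose summed level in the 6 libraries was 159 to 217 CPM for B and plasma cells, 5.26 to 30.6 CPM for CD8 T and NK cells, and 97.9 to 183 CPM for stromal, endothelial and lung epithelial cells. In bulk libraries, fewer cells of a type and less RNA per cell cannot be told apart.

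None of the 10 members was called between cKO and WT (0 of 15315 genes, 0%, were called with all libraries, and 2 by DESeq2, Ifi208 and Xrcc6). At an unadjusted p under 0.05, edgeR gave 0 members, beside 277 of all genes (1.81%), and DESeq2 also gave 0 members, beside 307 of all genes. Of the 10 members, 4 had higher and 6 lower values in the cKO group. Their median log2 fold change was -0.04, beside 0.04 over all genes tested. Without WT replicate 2 it was 5 higher and 5 lower, with a median of -0.01 for the members and -0.01 for all genes. The log2 fold changes ran from -0.40 (Bcl2a1d) to 0.33 (Bid), and the 95% confidence intervals of the 10 genes lay between -0.96 and 1.17.

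**Figure D1:**
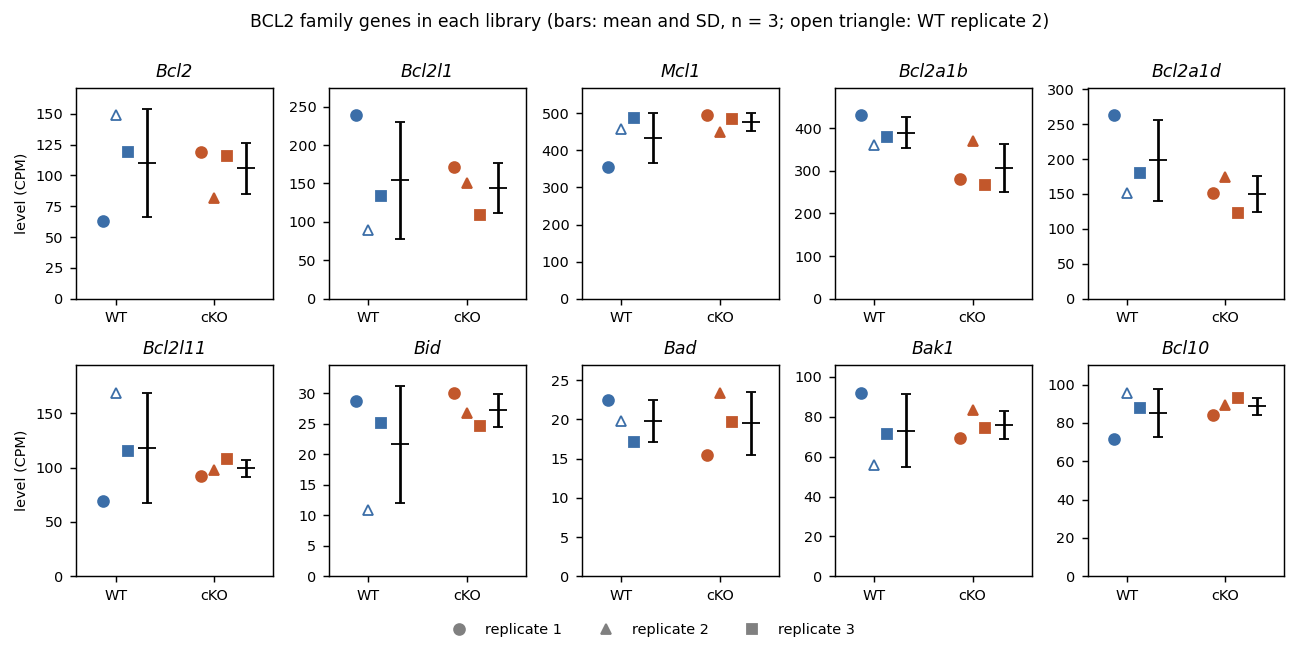
Level of each member in CPM (vertical axes, from 0) in the 3 WT and 3 cKO libraries, with symbols for the replicate number, an open triangle for WT replicate 2, and the mean and SD of 3 libraries beside each group. The groups overlap for all 10 genes, and the cKO libraries of Bcl2l11 (92.6 to 108 CPM) lie inside the WT range (69.2 to 169 CPM).

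The Bcl2a1 genes need a look at their sequence before their values. A1 is encoded in the mouse by several near copies on chromosome 9, and an aligner must divide reads among them. Bcl2a1b (chr9:89199209-89207827, plus strand, GRCm38) and Bcl2a1d (chr9:88723285-88731914, minus strand) have coding sequences of 516 bases that differ at 6 positions, an identity of 98.8%. Bcl2a1a (chr9:88956900-88962419, plus strand) differs from Bcl2a1b at 11 positions and from Bcl2a1d at 7. The first 99 coding bases of each, from the start codon, are shown because they hold 3 of the 6 positions (G4T, T48C and A94C, Bcl2a1b base first, counted from the A of the start codon), which are in capitals. They lie in 1 exon of each gene, at chr9:89199360-89199458 for Bcl2a1b, chr9:88731621-88731719 for Bcl2a1d and chr9:88957051-88957149 for Bcl2a1a, and were read from the GENCODE M21 transcripts.
Bcl2a1b: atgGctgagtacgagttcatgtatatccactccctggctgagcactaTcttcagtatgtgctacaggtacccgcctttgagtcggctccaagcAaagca
Bcl2a1d: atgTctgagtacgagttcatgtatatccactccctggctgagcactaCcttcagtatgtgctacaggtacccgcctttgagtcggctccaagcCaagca
Bcl2a1a: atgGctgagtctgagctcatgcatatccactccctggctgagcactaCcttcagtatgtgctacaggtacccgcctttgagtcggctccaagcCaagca
Between T48C and A94C no base tells Bcl2a1b from Bcl2a1d. Of the stretches of 150 bases, the read length, in the Bcl2a1b transcript, 41.9% also occur in a transcript of another gene, and for Bcl2a1d it was 30.3%. For Bcl2, Bcl2l1, Mcl1, Bcl2l11, Bak1, Bid, Bad and Bcl10 the share was 0%. Of the 280 shared stretches of Bcl2a1b, 253 occur in Gm29094, an annotated gene on the same strand. Of the same 280, 95 occur in Bcl2a1d and 68 in Bcl2a1a, some in more than 1 gene. Of the 216 shared stretches of Bcl2a1d, 189 occur in Bcl2a1a, 95 in Bcl2a1b and 68 in Gm29094. The deposited counts of Bcl2a1b, Bcl2a1d and Bcl2l11 were not whole numbers in any of the 6 libraries. Of all deposited values, 21.6% were not whole. As Bcl2l11 shared no stretch, such counts alone do not show a division of reads among copies. Given the shared stretches, the split between the Bcl2a1 copies is an estimate, while their sum depends on it less. That sum would not include any reads assigned to Gm29094.

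Compared per length (CPM per kb of annotated exons, mean of 6 libraries), A1 transcripts were the most abundant of the system. Bcl2a1b was at 426 ± 76.6 and Bcl2a1d at 201 ± 55.7 CPM per kb (SD, n = 6). Mcl1 followed at 133 ± 15.1 CPM per kb, below Bcl2a1d in all 6 libraries, although their ranges across libraries overlapped. A step of 4.09-fold separated Mcl1 from Bcl2l1 at 32.5 ± 11.5 CPM per kb, with no overlap. Bak1, at 30.9 ± 5.16 CPM per kb, could not be ordered against Bcl2l1, which was the higher in 2 of 6 libraries. Bcl10 was at 19 ± 1.88, Bcl2l11 at 13.5 ± 4.19 and Bcl2 at 11.8 ± 3.36 CPM per kb, and these neighbors overlapped. Bad (7.68 ± 1.2) and Bid (6.86 ± 1.96) were lowest and did not differ beyond their spread. With the length of the longest transcript in place of all exons, Bcl2l1 was at 58.1 and Bcl10 at 36.7 CPM per kb, so that Bcl2l1 exceeded Bak1 (31.2) in all 6 libraries and Bak1 exceeded Bcl10 in 1. Bcl2 ranked below A1 and MCL1 transcripts under both lengths. In the cKO group Bcl2 was at 11.5 ± 2.26 CPM per kb (SD, n = 3).

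Bcl2 (chr1:106538178-106714274, minus strand), the founding prosurvival member that quiescent and memory T cells rely on, was at 62.8, 149 and 119 CPM in the WT libraries and at 119, 81.8 and 116 CPM in the cKO libraries. WT replicate 1 was the lowest of all 6 libraries and WT replicate 2 the highest, so all cKO libraries lay between them. The WT mean was 110 ± 43.8 and the cKO mean 106 ± 20.7 CPM (SD, n = 3). This is a log2 fold change of -0.06 (standard error 0.31, adjusted p = 0.991 by edgeR). Without WT replicate 2 the value was 0.22, with a 95% interval from -0.39 to 0.82.

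Bcl2l1 (chr2:152780668-152831728, minus strand), which encodes BCL-xL, had the reverse order within the WT group. It was at 239, 90.0 and 134 CPM in the WT libraries and at 172, 151 and 109 CPM in the cKO libraries. Here WT replicate 1 was the highest library and WT replicate 2 the lowest, 2.65-fold apart, and the cKO libraries again lay between them. The WT mean was 154 ± 76.5 and the cKO mean 144 ± 32.2 CPM (SD, n = 3). Between them the log2 fold change was -0.10 (standard error 0.35, adjusted p = 0.985 by edgeR). Its direction depended on 1 library: without WT replicate 1 the log2 fold change was 0.36, and without WT replicate 2 it was -0.38.

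Mcl1 (chr3:95658788-95663176, plus strand) encodes a short-lived prosurvival protein. It was at 356, 457 and 487 CPM in the WT libraries and at 495, 449 and 485 CPM in the cKO libraries. WT replicate 1 was the lowest, and the other 5 libraries were between 449 and 495 CPM. The cKO mean was 476 ± 24.0 CPM (SD, n = 3). The difference from the WT mean of 433 ± 68.5 CPM was a log2 fold change of 0.14, with a 95% interval from -0.28 to 0.55, and 0.18 without WT replicate 2. It stayed between 0.01 and 0.23 when each library was left out in turn.

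Bcl2a1b and Bcl2a1d, which encode the NF-kB-induced protein A1, had the lowest values in the cKO group relative to WT among the members. Bcl2a1b was at 431, 360 and 380 CPM in the WT libraries and at 282, 370 and 266 CPM in the cKO libraries. Bcl2a1d was at 263, 151 and 180 CPM in the WT and at 151, 175 and 123 CPM in the cKO replicates. For both genes cKO replicate 3 was the lowest library, and cKO replicate 2, the highest of its group, lay above WT replicate 2, so the groups overlapped. Means were 390 ± 36.6 against 306 ± 56.1 CPM for Bcl2a1b and 198 ± 57.9 against 150 ± 26.0 CPM for Bcl2a1d (SD, n = 3, WT against cKO). The log2 fold change was -0.35 for Bcl2a1b (standard error 0.18) and -0.40 for Bcl2a1d (standard error 0.24), with unadjusted p-values of 0.0941 and 0.133 and an adjusted p of 0.984 for both from edgeR. By an exact permutation test, two-sided, p was 0.2 for both genes, and 3 against 3 cannot go below 0.1.

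Without WT replicate 2, the 2 WT libraries were above the 3 cKO libraries for both A1 genes. Over all genes, 3.23% had all cKO libraries below all WT libraries with the 6 libraries, and 7.94% did without WT replicate 2. The log2 fold change was then -0.41 for Bcl2a1b (unadjusted p = 0.0601, edgeR) and -0.56 for Bcl2a1d (95% interval from -1.03 to -0.09, unadjusted p = 0.0241, edgeR), and the adjusted p was 0.997 for both. Bcl2a1d was thus the 1 member of 10 at an unadjusted p under 0.05 and lower in the cKO group, beside 229 of 15302 genes (1.5%). The exact permutation test gave p = 0.2 for each, the smallest that 2 against 3 allow. The negative sign held for both genes in every fit that left out 1 library, from -0.51 to -0.26 for Bcl2a1b and from -0.56 to -0.14 for Bcl2a1d.

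The sum over the 4 Bcl2a1 genes is less affected by how reads were divided among these 4. It was 704, 515 and 569 CPM in the WT libraries and 440, 555 and 397 CPM in the cKO libraries. Of it, at least 97.8% came from Bcl2a1b and Bcl2a1d in every library. The log2 ratio of the group means was -0.36, and -0.46 without WT replicate 2. As these 2 genes make up nearly all of the sum, its ratio had to lie near theirs and is no separate check. Bcl2a1b also shares 49.1% of its exon bases with Gm29094, an annotated gene on the same strand that was not analysed here. Neutrophils and macrophages express A1 too. The summed level of 13 macrophage and dendritic cell markers was 201, 713 and 744 CPM in the WT replicates. In the cKO replicates it was 246, 582 and 1110 CPM. Most of this sum was 1 gene, Lyz2, at 129, 474 and 500 CPM in the WT and 170, 323 and 625 CPM in the cKO replicates. Of 14 neutrophil markers, 11 had counts, and their sum of 189 to 465 CPM was mostly Il1r2, which Tregs also express. Elane, Mpo and Camp were not analysed here, and Ly6g had at most 3 counts in any library. Retnlg had 0 counts in the WT and 13 to 34 in the cKO libraries, Ngp 0 and 7 to 8, and S100a9 0 to 4 and 24 to 43. These 3 genes of low counts were the ones of the 11 at an unadjusted p under 0.05 by edgeR (1.81% of all genes were), and none of the 11 was called. In the cKO group 8 of the 11 had higher and 3 lower values, the latter being Il1r2, Cxcr2 and Csf3r, with log2 fold changes of -0.59, -0.58 and -0.08. The part of these cells in the A1 levels was not tested.

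**Figure D2:**
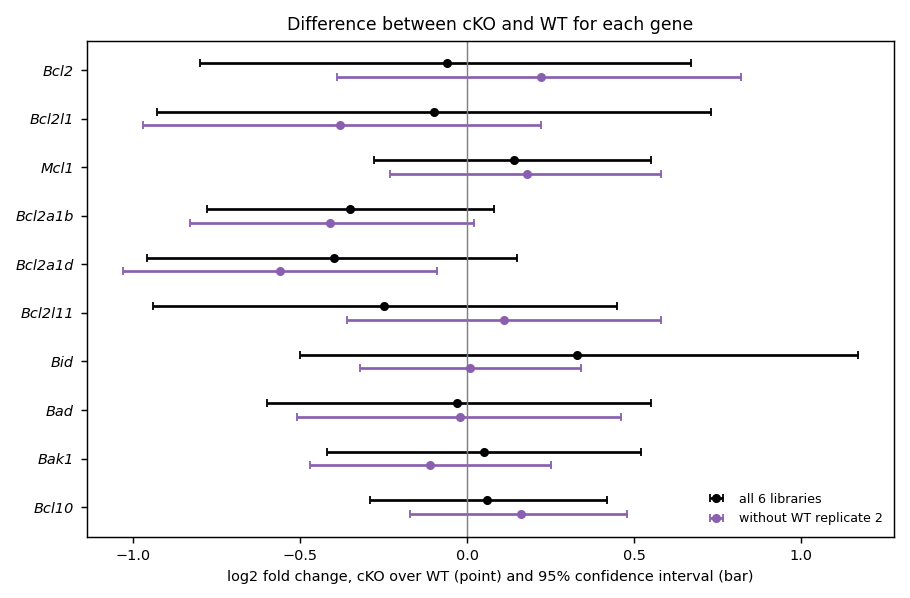
Log2 fold change of cKO over WT for each member (points) with its 95% confidence interval (bars), from edgeR with all 6 libraries (black) and without WT replicate 2 (purple). With 6 libraries every interval includes 0, and without WT replicate 2 the interval of Bcl2a1d (-1.03 to -0.09) does not.

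Among the death genes, Bcl2l11 (chr2:128126038-128162547, plus strand) encodes BIM, the BH3-only protein that removes T cells after loss of cytokine or strong receptor signals. It was at 69.2, 169 and 115 CPM in the WT libraries and at 92.6, 98.1 and 108 CPM in the cKO libraries. Like Bcl2, it was lowest in WT replicate 1 and highest in WT replicate 2, and the cKO libraries were close together. The WT mean was 118 ± 50.2 and the cKO mean 99.4 ± 7.60 CPM (SD, n = 3), and the log2 fold change of -0.25 (standard error 0.30) was 0.11 without WT replicate 2. It was -0.52 without WT replicate 1, with an unadjusted p of 0.0371 from edgeR.

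Bid (chr6:120891930-120916853, minus strand), which links death receptors to mitochondria once caspase-8 has cut it, was at 28.7, 10.8 and 25.2 CPM in the WT libraries and at 30.1, 26.8 and 24.7 CPM in the cKO libraries. WT replicate 2 alone was low, and the other 5 libraries were between 24.7 and 30.1 CPM. The log2 fold change of 0.33 (standard error 0.36), the highest of the members, was 0.01 without that library, with a 95% interval from -0.32 to 0.34. Of its exon bases, 17.7% overlap Bcl2l13 on the other strand, and whether counting used strand is not given in the sources used here.

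Bad (chr19:6941861-6951899, plus strand), a BH3-only protein that growth factor signals silence by phosphorylation, was at 22.5, 19.8 and 17.1 CPM in the WT libraries and at 15.4, 23.4 and 19.6 CPM in the cKO libraries. Its group means, 19.8 ± 2.71 and 19.5 ± 4.02 CPM (SD, n = 3), were nearly equal, and the 95% interval of the log2 fold change was -0.60 to 0.55. On the log2 scale the fold change was -0.03, and -0.02 without WT replicate 2. Bad overlaps Gpr137 on the other strand over 20.5% of its exon bases.

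Bak1 (chr17:27019810-27029009, minus strand), the pore former held at the mitochondrion by MCL1 and BCL-xL, was at 92.1, 55.8 and 71.2 CPM in the WT libraries and at 69.5, 83.4 and 74.2 CPM in the cKO libraries. It was highest in WT replicate 1 and lowest in WT replicate 2, the same order as Bcl2l1. The log2 fold change was 0.05 (95% interval from -0.42 to 0.52), and -0.11 without WT replicate 2. Genes named Ggnbp1 overlap it on the other strand, over up to 18.2% of its exon bases.

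Bcl10 (chr3:145922804-145934356, plus strand), the NF-kB adaptor that works with MALT1, was at 71.5, 95.8 and 87.9 CPM in the WT libraries and at 84.0, 89.4 and 92.9 CPM in the cKO libraries. The WT mean of 85.1 ± 12.4 and the cKO mean of 88.8 ± 4.45 CPM (SD, n = 3) gave a log2 fold change of 0.06, with the narrowest interval of the 10 genes, from -0.29 to 0.42, and of 0.16 without WT replicate 2. Its order of libraries within the WT group was that of Bcl2 and Bcl2l11, lowest in replicate 1 and highest in replicate 2.

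For 5 of the 10 members (Bcl2, Bcl2l1, Bcl2l11, Bak1 and Bcl10) the cKO libraries all lay inside the WT range, beside 36.4% of all genes. The SD of log2(CPM + 0.5) was larger in the WT than in the cKO group for 8 of the 10 members, and for 84.8% of the 8447 genes with a mean of at least 10 CPM. Its median over the members was 0.38 in the WT and 0.20 in the cKO group, beside 0.34 and 0.14 over those 8447 genes. With WT replicate 2 left out, the median in the WT group was 0.30 for the members and 0.16 for those 8447 genes, so the members differed between WT replicates 1 and 3 as well. WT replicate 3 lay between the other 2 WT libraries for 8 of 10 members, beside 55.6% of the 8447 genes. Within the WT group, replicate 1 was the lowest library for Bcl2, Mcl1, Bcl2l11 and Bcl10 and the highest for Bcl2l1, Bcl2a1b, Bcl2a1d, Bak1, Bid and Bad. It was the lowest of the 3 for 31.9% and the highest for 37.1% of the 8447 genes. That library also had the highest summed level of 8 Treg markers, 8610 CPM against 5960 to 6620 CPM in the other 5 libraries, with Tnfrsf4 (OX40) at 3070 CPM against 1660 to 1920 and Tnfrsf18 (GITR) at 1130 CPM against 574 to 745. Foxp3, Il2ra, Ctla4 and Cd3e were not highest in that library. Il2rb and Il2rg, which pass on the IL-2 signal, were highest there too, at 1530 and 1390 CPM. Whether these moved together for a shared reason was not tested.

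**Figure D3:**
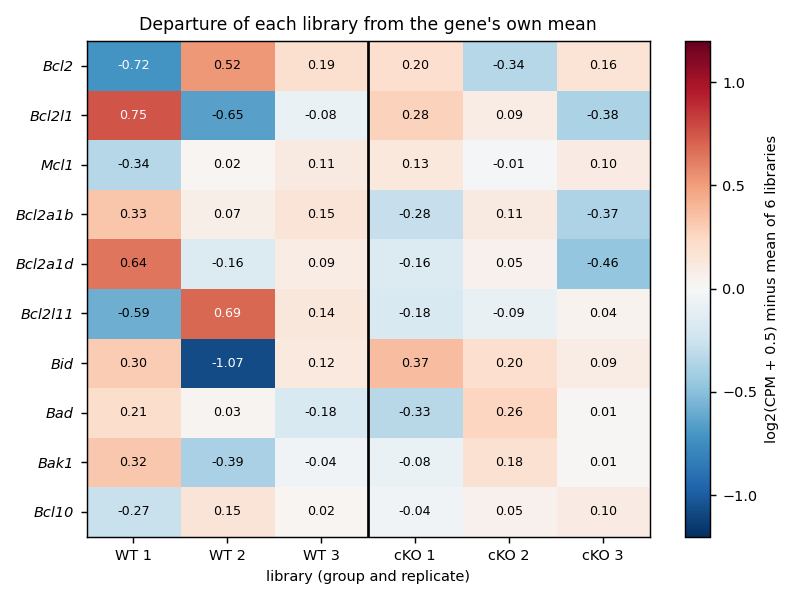
Departure of each library from the mean of 6 libraries, as log2(CPM + 0.5), for each member (rows) in the WT and cKO libraries (columns), with blue for lower and red for higher values. WT replicate 1 is -0.72 for Bcl2 and 0.75 for Bcl2l1, WT replicate 2 is 0.52 and -0.65 for the same genes, and Bid is -1.07 in WT replicate 2.

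Ratios between members within 1 library do not depend on scaling. The ratio of Bcl2 to Bcl2l1 counts was 0.263, 1.66 and 0.885 across the WT libraries and 0.692, 0.541 and 1.07 across the cKO libraries. It ranged over more than the whole cKO group among the WT libraries alone, and the mean log2 ratio was -0.46 ± 1.35 in the WT and -0.44 ± 0.50 in the cKO group (SD, n = 3). Without WT replicate 2, the mean difference of cKO from WT was 0.61, smaller than the SD of the 2 remaining WT libraries, 1.24. By contrast, Bcl2l11 and Bcl2 had the same order in the WT libraries, and their ratio there was 1.1, 1.14 and 0.969. In the cKO replicates the ratio was 0.778, 1.2 and 0.929. There the 2 genes did not move together, since replicate 1 was the highest of the group for Bcl2 and the lowest for Bcl2l11. The log2 ratio of BIM to BCL2 transcripts thus averaged 0.09 ± 0.12 in the WT and -0.07 ± 0.31 in the cKO group (SD, n = 3), a difference smaller than the SD in the cKO group. Bcl2a1b exceeded Bcl2a1d in every library, with a ratio of 1.64, 2.38 and 2.11 in the WT and 1.87, 2.12 and 2.16 in the cKO replicates.

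**Figure D4:**
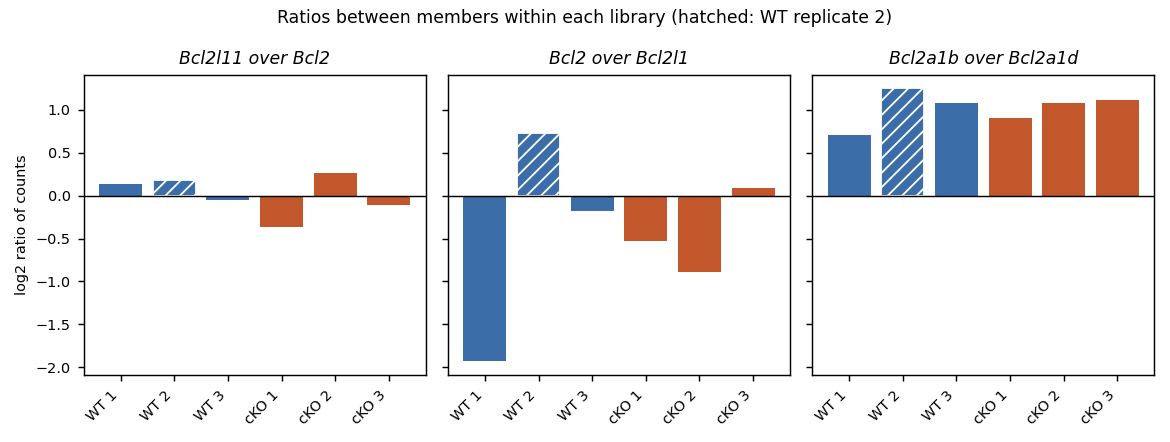
Log2 ratio of counts for 3 pairs of members in each library (bars from 0), WT in blue and cKO in orange, WT replicate 2 hatched. Bcl2 over Bcl2l1 runs from -1.93 in WT replicate 1 to 0.73 in WT replicate 2, while Bcl2l11 over Bcl2 stays between -0.36 and 0.26.

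Over the 6 libraries, patterns were compared by the root mean square difference of log2(CPM + 0.5) after centering each gene, as a description over 11567 other genes with a mean of at least 1 CPM. Bcl2 was closest to Ift80 (0.06), Asap1 (0.08) and Arhgef18 (0.09). For Mcl1 the closest were Phip (0.03), Chst15 (0.03) and Arhgap15 (0.04). Bcl2l11 was closest to Ralgps2 (0.03), Tnfrsf10b (0.07), a death receptor of the TRAIL ligand, and Pdzd2 (0.07). Tnfrsf10b was at 29.5, 80.5 and 52.0 CPM in the WT and at 46.0, 45.2 and 50.3 CPM in the cKO replicates. Among pairs of members, Mcl1 and Bcl10 were closest (0.10), then Bcl2a1b and Bcl2a1d (0.17) and Bcl2 and Bcl2l11 (0.21). The difference is not scaled to the spread of a gene, so genes that vary little, such as Mcl1 and Bcl10, come out close more easily. Bcl2a1b and Bcl2a1d also share stretches of read length.

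The rest of the pathway was taken as 7 lists of 65 genes, of which 64 had counts and Hrk was not analysed here. None of the 64 was called. In the cKO group 35 had higher and 29 lower values, with a median log2 fold change of 0.06, beside 0.04 over all genes. At an unadjusted p under 0.05, edgeR gave 1 of the 64, higher in the cKO group, beside 1.81% of all genes. It gave 2 without WT replicate 2, Bcl2l10 and Ripk1, beside 461 of 15302 genes (3.01%), and Ripk1 was named after its values were seen. Bcl2l10, a prosurvival relative known from oocytes, had 0 counts in all 3 WT libraries and 5, 6 and 9 in the cKO libraries. The cKO mean of 0.307 ± 0.0857 CPM (SD, n = 3) was 2.09-fold the limit of 3 counts per WT library (unadjusted p = 0.00889, adjusted p = 0.984, edgeR). The counting error of the few cKO counts is not included in this ratio. Ripk1, a kinase of TNF receptor signaling, was at 49.9, 16.3 and 50.0 CPM in the WT and at 62.5, 59.1 and 64.2 CPM in the cKO replicates, with a log2 fold change of 0.68, and 0.31 without WT replicate 2.

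Among the other prosurvival relatives with counts in WT, Bcl2a1c was at 4.14 to 8.99, Bcl2l2 (BCL-w) at 9.12 to 15.5 and Bcl2a1a at 0.188 to 2.80 CPM. Bax, the second pore former and a known partner of Ku70, was at 120, 119 and 105 CPM in the WT libraries and at 122, 132 and 117 CPM in the cKO libraries. This gave Bax a log2 fold change of 0.11 (standard error 0.13, adjusted p = 0.984, edgeR), and 0.13 without WT replicate 2. Bok, the other gene of that pair, had at most 11 counts in a library.

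Of the 10 other BH3-only and BCL2-like genes with counts, 8 had higher and 2 lower values in the cKO group (median log2 fold change 0.19), and 6 and 4 without WT replicate 2 (median 0.03). The most abundant per length were Pmaip1 (NOXA), Bnip3l, which marks mitochondria for removal, and Bbc3 (PUMA). Pmaip1 was at 137 to 209 CPM in the WT and 140 to 164 CPM in the cKO group, with a log2 fold change of -0.09, and 0.13 without WT replicate 2. For Bnip3l these values were 0.11 and 0.01. Bbc3, a p53 target, was at 16.8, 34.6 and 37.2 CPM in the WT and at 33.5, 37.6 and 51.1 CPM in the cKO replicates. The log2 fold change of Bbc3 was 0.46 (standard error 0.32, unadjusted p = 0.192, edgeR), and 0.60 without WT replicate 2 (unadjusted p = 0.0916, edgeR).

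Downstream, 20 genes of the apoptosome, the caspases and their inhibitors had 11 higher and 9 lower values, with a median log2 fold change of 0.08, and -0.04 without WT replicate 2. Cycs (cytochrome c), Birc3 (cIAP2) and Vdac2, a channel that holds BAK, led by level per length, with log2 fold changes of -0.11, -0.04 and 0.16. They were -0.20, 0.09 and 0.02 without WT replicate 2, so the sign of Birc3 turned. The 8 death receptor genes had 3 higher and 5 lower values (median -0.04), and Casp8, Fas and Tradd, the most abundant, had log2 fold changes of -0.28, -0.21 and 0.42. Leaving out WT replicate 2 made these 0.03, 0.08 and -0.07. The 8 partners of BCL10 had 4 higher and 4 lower values (median 0.02), and 6 and 2 without WT replicate 2 (median 0.10). Among the most abundant of them, Prkcq and Chuk had log2 fold changes of 0.14 and -0.16, which became 0.40 and 0.01 without that library. Of the 12 upstream genes, 5 had higher and 7 lower values (median -0.02), and Il2rg, Pim1 and Il2rb, the most abundant, had log2 fold changes of 0.08, -0.29 and 0.08. With WT replicate 2 left out they were -0.05, -0.06 and -0.04, the sign of both receptor chains having turned.

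**Figure D5:**
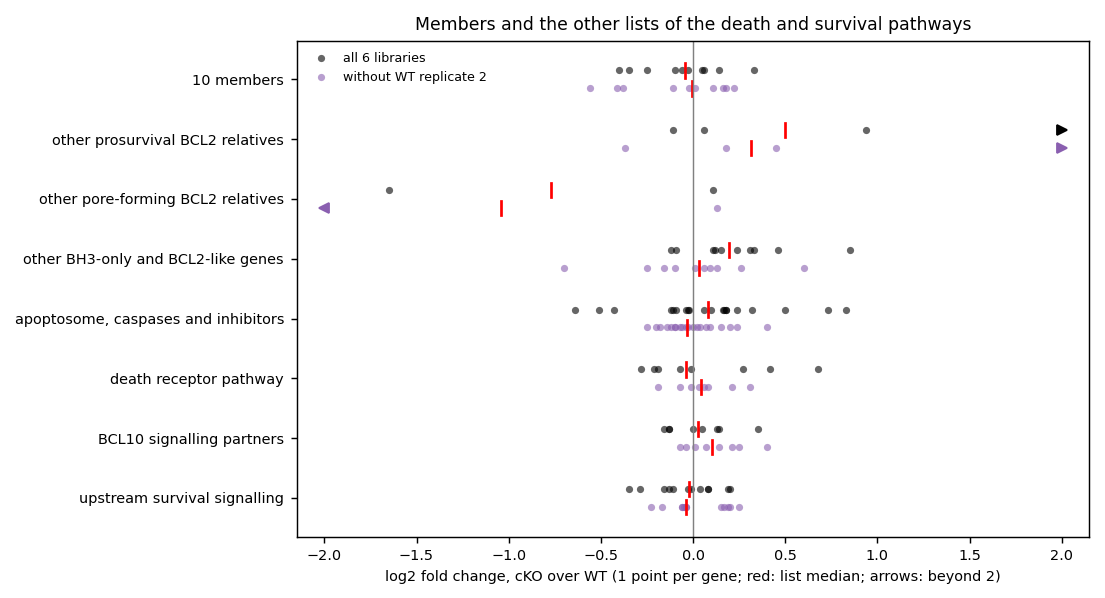
Log2 fold change of cKO over WT (horizontal axis, 1 point per gene) for the 10 members and the 7 other lists, with all 6 libraries (black) and without WT replicate 2 (purple), red marks for list medians and arrows for genes beyond 2. The median is -0.04 for the members and 0.08 for the apoptosome list, and the arrows are Bcl2l10 on the right and, without WT replicate 2, Bok on the left.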

How the data were processed

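RNA-Seq of Tregs sorted from LLC lung tumors gave 3 WT and 3 cKO libraries. Paired-end reads of 150 bp were cleaned and aligned to GRCm38 by the authors. The submitters' processing notes name Bowtie2 (version 2.3.4.3) and RSEM (version 1.3.1), without their roles, and the annotation and strand setting are not given in the sources used here. The values that the authors deposited are expected counts for each symbol, not normalized, of which 21.6% of values were not whole, and these were rounded here. No pair of libraries within a group agreed within sampling noise. CPM were computed on 1000000 counts of the TMM-scaled total. Scaling and tests used edgeR (version 4.0.16, TMM, quasi-likelihood test, group as the only factor) in R (version 4.3.3), and p-values were adjusted (Benjamini-Hochberg) across 15315 genes that had any count. Standard errors and 95% intervals were derived from the log2 fold change, the F statistic and its degrees of freedom. Exact permutation tests were two-sided. Positions, exon lengths and transcripts came from GENCODE M21, which is on GRCm38.

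The members and gene lists were chosen with earlier results of these data known. The genes named were all members, Xrcc6, marker genes, and from each list the 3 highest per length and those at an unadjusted p under 0.05, except 1 gene that is not reported here. The nearest patterns of 3 members were also named, and Ripk1 and the genes of the closing observations were picked after their values were seen. Alternatives left out each library, added a block for the replicate number, or used robust dispersion, library size without TMM, scaling by median of ratios, filterByExpr (minimum count 10), DESeq2 (version 1.42.0), voomWithQualityWeights of limma (version 3.58.1), longest-transcript lengths, or unrounded counts. DESeq2 without WT replicate 2 was added after the data were seen. On simulated data in which 200 of 15266 genes had a true log2 fold change of 2, edgeR recovered 150 and also called 14 unchanged genes. DESeq2 recovered 177 and called 97 unchanged genes. Without WT replicate 2, among 15257 genes, both recovered 200 of 200, and edgeR called 18 and DESeq2 39 unchanged genes. The 200 genes were picked among those above a set mean level, and each gene had the same dispersion in all simulated libraries. WT replicate 2 was therefore not simulated as a library that stands apart, and these rates may not hold for the data. Recovery of smaller log2 fold changes, such as those of the members, was not tested. In the data themselves, Xrcc6 at a log2 fold change of -3.06 was not called by edgeR with all libraries.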

Additional observations from a re-analysis of the deposited data

How the results depend on the processing

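No member was called in any of the 14 alternative fits, in which the smallest adjusted p of a member was 0.677. Of 140 values of the 10 members under these fits, 120 kept their direction and 20 did not. Mcl1, Bcl2a1b, Bcl2a1d and Bid kept theirs in every fit. Without WT replicate 2 the log2 fold change was 0.22 for Bcl2, 0.11 for Bcl2l11 and -0.11 for Bak1, and DESeq2 without that library gave 0.21, 0.11 and -0.11. voomWithQualityWeights gave 0.11 for Bcl2, 0.05 for Bcl2l11, -0.02 for Bak1 and 0.06 for Bad. Library size only gave -0.00 for Bak1 and -0.01 for Bcl10. With 1 other library left out, values of the opposite sign were 0.36 for Bcl2l1, 0.08 for Bad and -0.05 for Bcl10 without WT replicate 1, 0.09 for Bcl2 and -0.02 for Bak1 without cKO replicate 2, 0.12 for Bad without cKO replicate 1, and 0.07 for Bcl2l1 without cKO replicate 3. Leaving out 1 library moved the log2 fold change over -0.34 to 0.22 for Bcl2, -0.38 to 0.36 for Bcl2l1, -0.52 to 0.11 for Bcl2l11, -0.11 to 0.25 for Bak1, -0.18 to 0.12 for Bad, -0.05 to 0.16 for Bcl10 and 0.01 to 0.60 for Bid. The cause was not tested.

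Whether the replicate numbers pair the samples is not given by the labels. Deviations of same-numbered WT and cKO libraries correlated at 0.114, -0.094 and 0.211 over 11568 genes, and not every library correlated best with its own number. With 3 libraries per group, these correlations cannot exclude a pairing. With the replicate number as a block, Bcl2 was at 0.00, no member was called, and 85 genes had an unadjusted p under 0.05, against 277 without it. That count was 140 with filterByExpr, which tests fewer genes, 543 with voomWithQualityWeights, and 65 to 874 with 1 library left out. Genes called numbered 2 with DESeq2 (Ifi208 and Xrcc6), 0 to 1 with 1 library left out (Xrcc6 without WT replicate 2) and 3 with DESeq2 without WT replicate 2 (those and Gm38690).

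Members at an unadjusted p under 0.05 numbered 0 to 1 with 1 library left out (Bcl2l11 without WT replicate 1, beside 874 of all genes, Bcl2a1d without WT replicate 2, beside 461, and Bcl2a1b without cKO replicate 2, beside 72). They numbered 1 with library size only (Bcl2a1b, beside 268 genes), 1 with voomWithQualityWeights (Bcl2a1d, beside 543), and 2 with DESeq2 without WT replicate 2 (both A1 genes, beside 370). Unrounded counts left the ratios as they were.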

Other observations

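Some genes of the death pathway had 0 counts in WT replicate 2 alone, as did 31.4% of the 1168 genes at 2 to 5 CPM in the other libraries. Casp9, the caspase activated on the apoptosome, had 147 and 169 counts in WT replicates 1 and 3, 165 to 235 in the cKO libraries and 0 in WT replicate 2. Bmf, a BH3-only gene, had 63 to 112 counts in the other 5 libraries and 0 in WT replicate 2, and Bik had 34 to 55 and 0. Birc5 (survivin), which dividing cells express, had 9 counts in WT replicate 2 and 260 to 414 in the others. In the other 5 libraries Casp9 (7.03 to 10.5 CPM) and Birc5 (12.1 to 19.9 CPM) were above the band of 2 to 5 CPM. No share of all genes was computed at their levels. All 10 members had counts in every library, and Bid was the member lowest in WT replicate 2 relative to the other libraries. These genes were picked after their values were seen. The log2 fold change of Casp9 was 0.83 with all libraries and 0.24 without WT replicate 2, and that of Bmf was 0.85 and 0.26.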
